A study of Mus musculus with 12 samples.

Results

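Large clusters of MED1 binding in untreated mouse embryonic stem cells were followed through 2 h of RAF activation. The clusters came from the MED1 peak lists at 0 h. The 28497 regions called in both clones were joined where they lay within 12.5 kb of each other, which gave 18400 clusters, and the 300 that covered the most bases were kept. Merging all 8 peak lists gave 78166 regions, of which 3246 lie inside these 300 clusters; these are called members below. The clusters were thus chosen by measured values, the MED1 peaks at 0 h, so every MED1 difference between 2 h and 0 h is given as a description with no test. MED24 lists were not used to choose them, and MED24 was tested over libraries. That test is not free of the choice, since changes of MED1 in clone a and MED24 in clone b correlated across clusters (r = 0.86). The same rule run on the 2 h MED1 lists gave a MED24 difference (2 h minus 0 h) of 377.4 kb, against -367.1 kb here. The test therefore cannot separate a change with treatment from the effect of choosing clusters at 0 h.

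The cells were of the E14tg2a line (129SV background), and all groups carried a stable cRAF-ErT2 cassette, a RAF kinase that becomes active with 4-hydroxytamoxifen (4OHT) and turns on ERK. All had been grown with serum, LIF and 2 µM Chir99021, an activator of Wnt signalling, and were moved 24 h before treatment to serum and LIF with PD173074 at 250 nM, which blocks FGF receptors. The 2 h groups then received 250 nM 4OHT for 2 h, and the 0 h groups were left untreated. Each of the 4 groups (MED24 at 2 h, MED24 at 0 h, MED1 at 2 h, MED1 at 0 h) held 1 library from clone a and 1 from clone b; MED24 was precipitated through a FLAG tag. The 4 input samples, vehicle-treated cells and cells without the cassette are not analysed here. Effects of 4OHT, of time and of ERK activation therefore cannot be told apart. Read numbers are not in peak lists, which leaves the depth unknown, and with 2 libraries a group the smallest p that an exact two-sided permutation test can give is 0.333. Libraries held 42445 and 48931 MED24 peaks at 2 h (clones a and b), against 41689 and 38398 at 0 h, and 43949 and 47305 MED1 peaks at 2 h, against 38668 and 37483 at 0 h.

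Mediator is the large complex that carries signals from factors bound at enhancers to RNA polymerase II at promoters. MED1 is a subunit of its middle part and MED24 of its tail. In embryonic stem cells, long stretches of DNA with dense Mediator binding, often called super-enhancers, are known to lie next to genes of cell identity, where Oct4, Sox2, Nanog, Esrrb and Klf factors bind together. Genes that answer to LIF through STAT3, and the genes of naive pluripotency, are background examples of such loci. ERK signalling is known to move these cells out of the naive state.

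The sequences below come from clusters that the results turn on, and were chosen after the values had been seen. They are promoters, 250 bases before to 50 after a gene's start, from RefSeq (GRCm38.p6, the assembly that mm10 stands for), each inside a member that all 8 libraries called. Capitals mark matches to 8 motifs searched on both strands: the octamer ATTTGCAT of POU factors, CATTGT of Sox factors, TCAAGGTCA of Esrrb, GGGNGTGG of Klf factors, TTCCNGGAA of STAT factors, TGANTCA of AP-1, CCGGAAGT of ETS factors and the TATA box TATAAA. Nanog is shown on the plus strand of chr6:122707315-122707614, Spp1 on the plus strand of chr5:104435942-104436241 and Tdgf1 on the minus strand of chr9:110946109-110946408; all 3 lie in clusters with less MED24 at 2 h. Zfp42 (minus strand of chr8:43306960-43307259) and the histone gene H2bc8 (plus strand of chr13:23571150-23571449) lie in the clusters of rank 2 and 1 at 2 h. Of the other 3, the Nanog and Tdgf1 clusters still overlapped one of the 300 largest at 2 h, and the Spp1 cluster did not.
Nanog: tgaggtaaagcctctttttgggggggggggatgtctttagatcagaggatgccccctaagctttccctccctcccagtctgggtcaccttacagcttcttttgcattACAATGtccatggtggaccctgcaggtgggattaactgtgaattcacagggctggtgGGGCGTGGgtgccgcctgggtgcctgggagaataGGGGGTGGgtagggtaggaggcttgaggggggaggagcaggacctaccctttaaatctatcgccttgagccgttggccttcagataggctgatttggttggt
Spp1: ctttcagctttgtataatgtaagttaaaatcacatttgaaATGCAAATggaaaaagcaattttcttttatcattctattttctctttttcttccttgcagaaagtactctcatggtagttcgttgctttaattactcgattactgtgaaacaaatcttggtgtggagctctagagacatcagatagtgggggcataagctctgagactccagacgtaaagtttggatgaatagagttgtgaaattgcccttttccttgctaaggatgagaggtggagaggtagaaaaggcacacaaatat
Tdgf1: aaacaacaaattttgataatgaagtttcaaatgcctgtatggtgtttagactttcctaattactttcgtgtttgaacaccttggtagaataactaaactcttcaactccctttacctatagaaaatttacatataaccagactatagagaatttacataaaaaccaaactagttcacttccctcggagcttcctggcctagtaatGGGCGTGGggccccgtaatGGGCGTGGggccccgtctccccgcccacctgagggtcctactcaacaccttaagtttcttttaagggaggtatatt
Zfp42: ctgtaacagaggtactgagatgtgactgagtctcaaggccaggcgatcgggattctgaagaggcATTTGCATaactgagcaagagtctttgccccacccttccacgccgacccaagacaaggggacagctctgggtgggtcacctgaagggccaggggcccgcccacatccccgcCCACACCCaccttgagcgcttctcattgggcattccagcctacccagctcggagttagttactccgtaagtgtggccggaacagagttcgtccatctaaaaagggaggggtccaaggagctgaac
H2bc8: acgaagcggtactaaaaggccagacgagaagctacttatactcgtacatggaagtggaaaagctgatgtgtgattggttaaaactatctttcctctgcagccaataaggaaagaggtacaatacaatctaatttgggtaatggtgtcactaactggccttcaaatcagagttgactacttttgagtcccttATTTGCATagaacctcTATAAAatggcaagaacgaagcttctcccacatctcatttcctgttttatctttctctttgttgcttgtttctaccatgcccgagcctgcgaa
The Spp1, Zfp42 and H2bc8 windows each hold an octamer, and the Nanog and Tdgf1 windows each hold 2 Klf matches. Zfp42 also holds a Klf match, Nanog a Sox match and H2bc8 a TATA box. Another Spp1 window in the same member, upstream at chr5:104434861-104435160, holds a TATA box and no octamer. Over the 724 promoter windows at members, 3.04% held the octamer, against 1.74% of all 32851 windows, and 23.2% held the Klf motif, against 17.6%. Histone windows are among those with the octamer: H2bc8 and H2ac8, which overlap and hold the same match, H2bc6, H2bc3 and H2ac4. The part of histone promoters and of overlapping windows in the octamer share was not tested. The Sox motif was in 6.49% of windows at members, against 12.6% of all windows, and AP-1 in 5.25%, against 7.81%. ETS was in 5.25%, against 3.89%, the TATA box in 10.8%, against 13.6%, STAT in 1.10%, against 1.15%, and Esrrb in 0.138%, against 0.423%. Windows at members had a median GC content of 60.7% and 20 CpG sites, against 52.7% and 7 for all windows; the part of base composition in these shares was not tested. A match is a description of letters, not of a bound factor.

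The cluster of rank 4 by covered bases holds the miR-290 to miR-295 hairpins, microRNAs abundant in embryonic stem cells. The 3′ arms below were picked because their seeds (bases 2 to 8, in capitals) are alike. All of those printed lie in the member chr7:3216934-3223961 (mm10), on the plus strand. Other 3′ arms of this member are not printed, among them miR-291b-3p (seed AAGUGCA), miR-293-3p (GUGCCGC) and, on the minus strand, miR-290b-3p (AGUGCCC).
miR-290a-3p: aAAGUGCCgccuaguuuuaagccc
miR-291a-3p: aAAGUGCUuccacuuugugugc
miR-294-3p: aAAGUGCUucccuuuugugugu
miR-295-3p: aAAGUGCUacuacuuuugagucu
miR-291a-3p, miR-294-3p and miR-295-3p share the seed AAGUGCU, and miR-290a-3p has AAGUGCC. In all, 42 of 1005 hairpins in the RefSeq table lay in 29 of the 300 clusters.

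At 0 h the clusters covered between 6.70 and 41.1 kb (median 9.19) within spans of 7.15 to 109.4 kb (median 30.8). They held 3.22 of the 24.1 Mb of MED1 regions called in both clones, which is 13.3%, in 2297 of the 28497 regions. A cluster joined 1 to 22 such regions (median 7); 2 of the 300 were a single region, against 13183 of all 18400. Protein-coding genes overlapped 262 clusters (87.3%), 35 more had one within 100 kb, and 3 had none. The boundary was narrow: ranks 298 to 300, at a histone gene group with H1f6, at Arl6ip1 and Rps15a, and at Hmgb2, covered 6.71, 6.71 and 6.70 kb, and ranks 301 to 303, at Actn4, at Ddx5 and 45.7 kb from Atf7ip, covered 6.70, 6.70 and 6.68 kb.

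The clusters held less MED24 at 2 h than at 0 h, in both clones and by every measure taken. MED24 peaks covered 1838 and 2103 kb of the clusters at 2 h, against 2388 and 2288 kb at 0 h (clones a and b), a mean of 1971 ± 187.5 kb against 2338 ± 70.8 kb (SD, n = 2 libraries each). The libraries of the 2 times did not overlap, and the difference was -367.1 kb, or -15.7% (exact two-sided permutation p = 0.333, the smallest possible; adjusted over 5 measures 0.333). Clone a gave most of it, with -549.8 kb, against -184.4 kb in clone b. Without the 2 h library of clone a the difference was -234.5 kb.

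In each clone the 2 h list held more peaks than the 0 h list, so shares of each library were also taken. Clusters held 8.20% and 7.90% of all MED24 peak bases at 2 h, against 10.5% and 11.0% at 0 h (8.05 ± 0.215% and 10.7 ± 0.369%, SD, n = 2 each), a difference of -2.67 percentage points. Of the 1000 strongest MED24 peaks of a library, 163 and 167 lay in the clusters at 2 h, against 283 and 283 at 0 h, a difference of -118.0 or -41.7%. The mean percentile of a cluster peak within its own library, where 100 is the strongest peak, was 54.8 ± 0.203 at 2 h and 57.2 ± 0.561 at 0 h (SD, n = 2 each). Each of these 3 differences also had an exact permutation p of 0.333. MED1, from which the clusters were chosen, covered 2346 and 2524 kb at 2 h, against 3015 and 2939 kb at 0 h, with 144 and 145 of its 1000 strongest peaks, against 248 and 249.

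**Figure D1:**
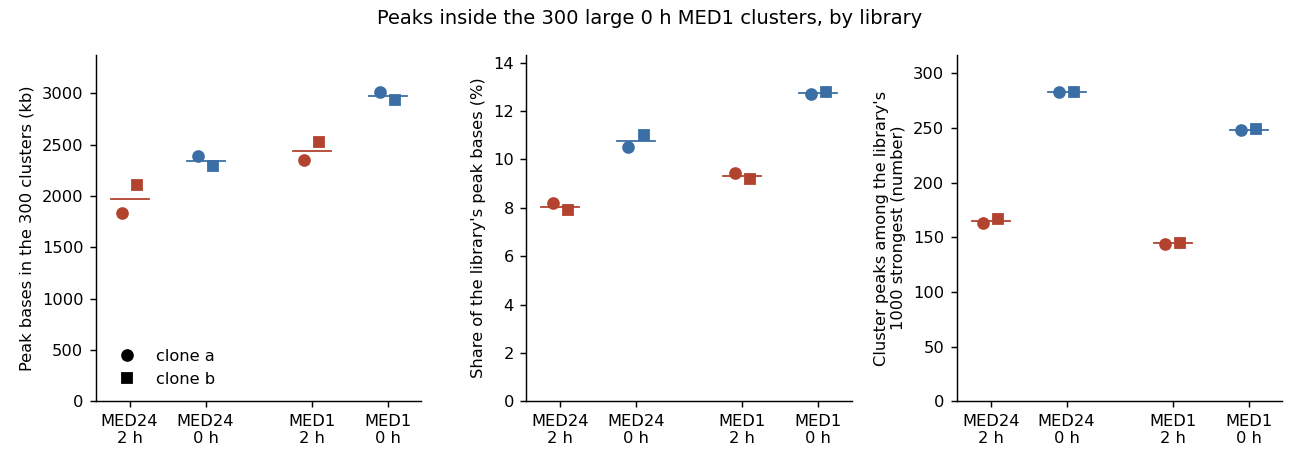
Peak bases in the 300 clusters (kb), share of each library's peak bases (%) and number of the library's 1000 strongest peaks that lie in the clusters, for each library (circle clone a, square clone b, line the mean of 2 libraries; 2 h in red, 0 h in blue). In every panel both 2 h libraries lie below both 0 h libraries of the same protein; for MED24 peaks among the 1000 strongest these are 163 and 167 against 283 and 283.

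The direction depends on the time from which the clusters were chosen, a comparison added after the data had been seen. When the same rule was run on the MED1 lists at 2 h, MED24 covered a mean of 2361 kb of the resulting 300 clusters at 2 h, against 1984 kb at 0 h (19.0% more). MED24 was then higher at 2 h in both clones in 177 of those clusters and lower in 57. Of the 0 h clusters, 184 (61.3%) overlapped a 2 h cluster, and 183 (61.0%) of the 2 h clusters overlapped a 0 h cluster. The values here thus describe sites chosen for being large at 0 h, and the MED24 tests cannot separate treatment from that choice. The next 300 clusters by rank (301 and below) showed similar values: 14.0% less MED24 and 19.6% less MED1 at 2 h, against 15.7% and 18.2% less in the 300 largest.

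Over single clusters, MED24 covered fewer bases at 2 h in both clones in 168 of 300 (56.0%), where 37.8% of all 18400 clusters did so, and more in 56 (18.7%), where 25.1% did so. In the other 76 the clones differed. The next 300 clusters by rank had 165 (55.0%) lower and 54 higher in both clones. For MED1, 196 clusters (65.3%) had fewer bases in both clones, against 55.9% of all clusters, and 43 (14.3%) had more, against 10.6%. The rule used the 0 h side of this contrast, so nothing is read from these MED1 shares. Both proteins were lower in 155 clusters and higher in 30; in 9, MED1 was lower and MED24 higher, and in 1 the reverse. The MED24 change of a cluster ranged from -87.5% to 287.2%, with a median of -14.2% over the 298 clusters that had MED24 at 0 h; MED24 bases were lower by 50% or more in 35 clusters and higher by 50% or more in 6. Across the 300 clusters the log2 changes of MED24 in clones a and b correlated with r = 0.90, and those of MED1 in clone a and MED24 in clone b with r = 0.86. These are descriptions over clusters, which share libraries and, within a clone, cells. Leaving out either clone a MED24 library moved the net share (higher minus lower) of clusters to -13.3%, against -37.3% with all libraries, and leaving out either clone b library moved it to -61.0%.

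**Figure D2:**
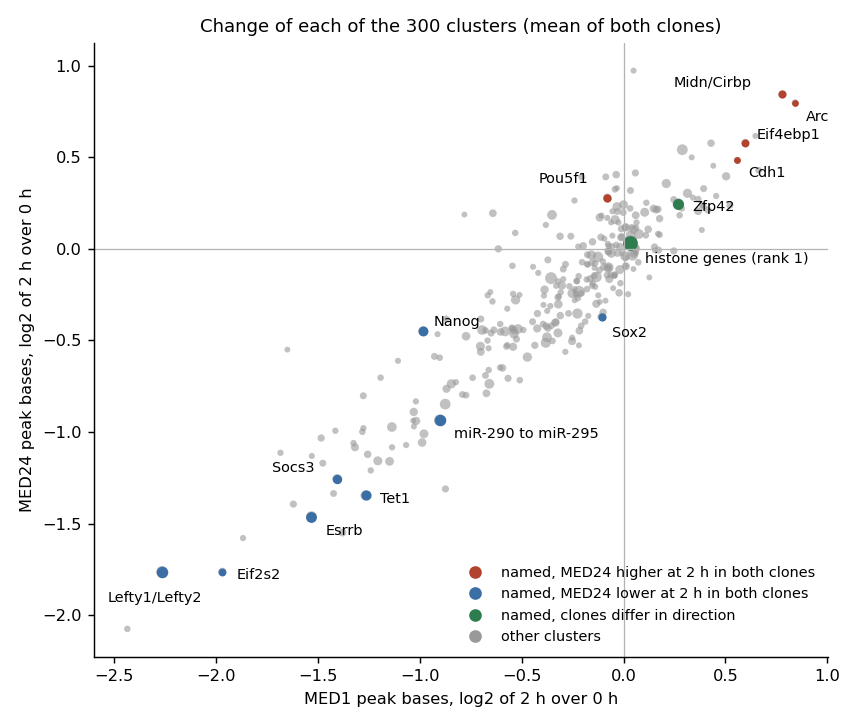
Each point is 1 of the 300 clusters: the x axis is the log2 ratio of MED1 peak bases, 2 h over 0 h, the y axis the same for MED24 (means of 2 clones, 1 kb added to each), and the area of a point follows the covered bases at 0 h. Most clusters lie along a line through both changes, from Lefty1/Lefty2 and Eif2s2 at the lower left to Midn/Cirbp and Arc at the upper right.

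Among the 10 largest clusters the changes went in different directions. The largest, over 15 histone genes including H1f3 and H2bc8 (chr13:23491971-23596015, mm10), had 31.3 and 36.1 kb of MED24 at 2 h, against 33.8 and 32.0 kb at 0 h, values that overlap; it was also the largest cluster at 2 h. The second histone cluster, with H1f1 (rank 6), had 21.2 and 23.7 kb at 2 h, against 23.0 and 23.0 kb at 0 h, and all 6 of its members were called in all 8 libraries. Histone genes supply the chromatin proteins made in S phase. Rank 2, with Jund, and rank 5, with Junb, both genes of AP-1 subunits, had 10.9% and 15.7% less MED24 at 2 h. Rank 7, at Zfp42, a marker gene of the naive state also called Rex1, had 14.8 and 19.5 kb of MED24 at 2 h, against 14.9 and 13.7 kb at 0 h, so the clones differed. Its promoter, printed above, lies in a member at percentiles 99.0 and 99.0 for MED24 at 2 h, against 99.1 and 98.9 at 0 h. Rank 8, from Cd2bp2 to Sephs2, had 49.0% more MED24 at 2 h, and rank 10, at Irf2bpl, had 47.2% less.

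The largest decrease was at Lefty1 and Lefty2, which encode secreted inhibitors of Nodal signalling. That cluster ranked 3 at 0 h (chr1:180874096-180942912, mm10), with 25.5 kb covered. MED24 covered 3.56 and 4.66 kb at 2 h, against 16.5 and 16.2 kb at 0 h (-74.9%), and MED1 covered 4.04 and 4.30 kb, against 24.5 and 23.2 kb (-82.5%). Of its 27 members, 3 were called in all 8 libraries; of the 17 called for MED24, 6 were lost, 1 was gained and 3 were retained. The strongest lost one, at chr1:180934376-180938455, had stood at MED24 percentiles of 96.1 and 95.8 at 0 h and had no MED24 peak at 2 h. By the rule run on the 2 h lists, the largest cluster overlapping this locus ranked 2946.

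At Esrrb, which encodes an orphan nuclear receptor of naive pluripotency, the cluster of rank 9 (chr12:86463002-86508789, mm10) had 4.64 and 5.41 kb of MED24 at 2 h, against 15.9 and 15.3 kb at 0 h (-67.8%). It lost 5 of 13 MED24 members and gained none. The strongest member, at chr12:86500261-86505556, kept its place at the top of the list, at MED24 percentiles of 99.5 and 99.6 at 2 h, against 100 and 100 (rounded) at 0 h. The 2 h and 0 h values of the cluster did not overlap in either protein. The miR-290 to miR-295 cluster, which overlaps Nlrp12 (rank 4, chr7:3184236-3224763, mm10), had 10.7 and 11.6 kb of MED24 at 2 h, against 21.2 and 23.3 kb at 0 h (-49.9%). Here 8 of 13 members were retained, and the member that holds the printed microRNAs stood at percentiles 97.7 and 98.4 at 2 h, against 99.9 and 99.9 at 0 h. The cluster still ranked 63 at 2 h.

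The other 5 clusters of the 8 with the largest decreases were at Tet1, Socs3, Eif2s2, Sik1 and Fos. Tet1 encodes an enzyme that oxidises 5-methylcytosine; its cluster had 4.80 and 5.94 kb of MED24 at 2 h, against 15.4 and 15.0 kb at 0 h, although none of its 3 MED24 members was lost in both clones. At Socs3, whose product is a feedback inhibitor of LIF and STAT3 signalling, the values were 5.40 and 6.46 kb at 2 h, against 16.0 and 15.1 kb at 0 h. At Eif2s2, which encodes a subunit of translation initiation factor eIF2, they were 1.88 and 2.44 kb, against 9.56 and 9.89 kb. All 3 members at Eif2s2 were retained, so the lower values lay inside retained members. The widest, chr2:154894827-154900365, stood at MED24 percentiles of 61.1 and 52.1 at 2 h, against 98.9 and 98.7 at 0 h. The cluster 22.8 kb from Sik1, a kinase gene, had 59.4% less MED24 at 2 h. At Fos, the immediate early AP-1 gene, the cluster had 5.83 and 6.17 kb at 2 h, against 12.8 and 13.4 kb at 0 h, with 3 of 7 MED24 members lost.

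In 56 clusters MED24 covered more bases at 2 h in both clones. The largest increase was at a gene-dense locus with Midn and Cirbp (rank 73, chr10:80130761-80179992, mm10), where MED24 covered 16.9 and 17.2 kb at 2 h, against 9.51 and 8.61 kb at 0 h (88.2% more), and MED1 20.2 and 19.5 kb, against 11.0 and 11.3 kb. Midn encodes midnolin, a factor in the breakdown of immediate early proteins, and Cirbp a cold-inducible RNA-binding protein. A member between the promoters of these genes, at chr10:80162656-80166341, was gained for MED24, at percentiles 97.7 and 97.9 at 2 h. At Arc, a gene of the immediate early response in neurons (rank 168, chr15:74652093-74692569, mm10), MED24 covered 12.2 and 12.5 kb at 2 h, against 6.82 and 6.53 kb at 0 h (85.2% more). There the member chr15:74687017-74688078 was gained for both proteins, at MED24 percentiles 97.2 and 97.1 and MED1 percentiles 96.2 and 93.3 at 2 h.

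At Cdh1, the gene of E-cadherin (rank 160), MED24 covered 10.9 and 10.9 kb at 2 h, against 7.60 and 7.42 kb at 0 h, with no member gained or lost. Its member chr8:106614356-106620887 stood at MED24 percentiles 99.4 and 99.5 at 2 h, against 86.0 and 92.7 at 0 h, so this cluster grew within retained members. The clusters at Eif4ebp1, a repressor of translation (54.6% more), at Mkrn1, a ubiquitin ligase gene (55.7%), at Per1, a gene of the circadian clock (30.8%), and 2.08 kb from Cd9, a tetraspanin gene (35.1%), together with the rank 8 cluster above, completed the 8 largest increases. In each of these 8 clusters both clones had more MED24 and more MED1 at 2 h.

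**Figure D3:**
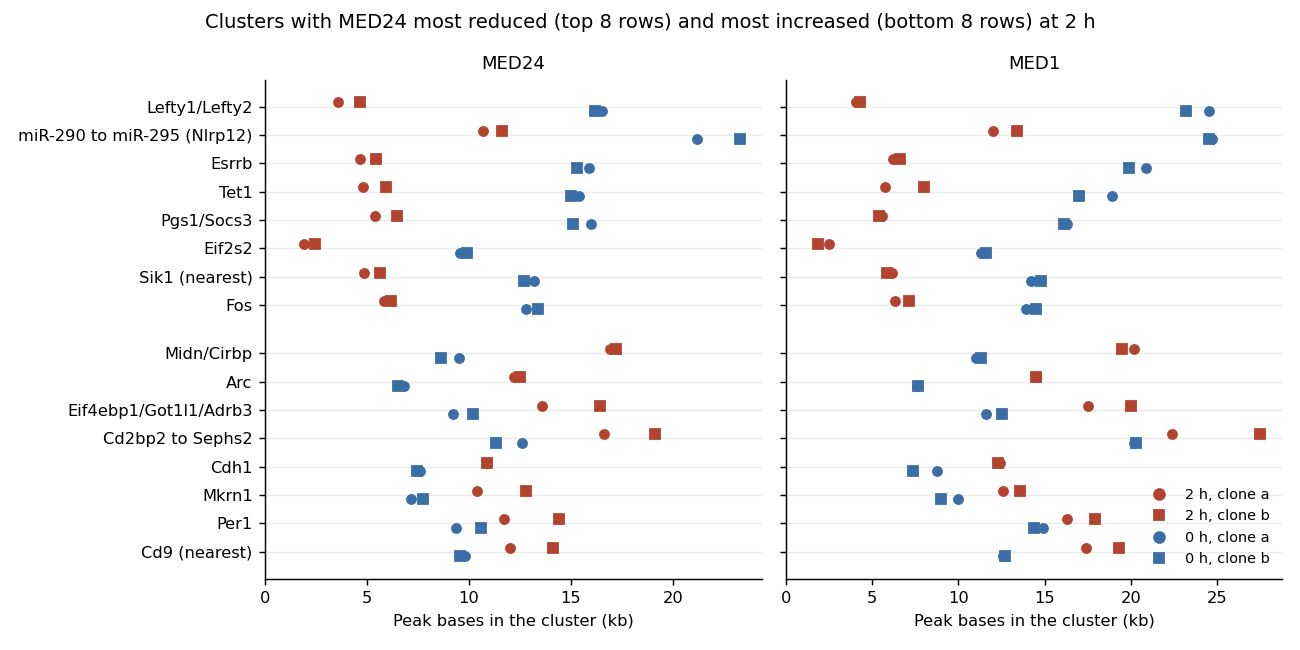
Peak bases (kb) of MED24 (left) and MED1 (right) in the 8 clusters with the largest decrease (upper rows) and the 8 with the largest increase of MED24, ordered by the smaller change of the clones; red 2 h, blue 0 h, circles clone a, squares clone b. At Lefty1/Lefty2 the MED24 values are 3.56 and 4.66 kb against 16.5 and 16.2 kb, and at Midn/Cirbp 16.9 and 17.2 kb against 9.51 and 8.61 kb.

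Most MED24 members were called at both times. Of 2513 members called for MED24 in any library, 1407 (56.0%) were retained, that is called in all 4 MED24 libraries, against 33.4% of all 63504 MED24 regions. A further 140 (5.57%) were gained, called in both 2 h and neither 0 h library, against 16.1% of all regions, and 215 (8.56%) were lost, the reverse, against 8.84%. In the next 300 clusters 59.4% were retained, 4.26% gained and 8.95% lost. Most members, 2102 of 3246, are the 0 h MED1 regions that built the clusters. Of those called for MED24, 1.66% were gained and 7.63% lost, while of the other members 18.4% were gained and 11.6% lost. The first of these sets was called at 0 h for MED1 by the rule. The net of gained minus lost was -2.98% for MED24. It was 0.366% without the 2 h library of clone a, where calls at 2 h rest on clone b alone. With all libraries and stitching over 25 kb it was 0.640%, so its sign was not stable. For MED1, the protein of the rule, 1563 of 3047 members (51.3%) were retained, 139 (4.56%) gained and 314 (10.3%) lost, against 31.4%, 17.8% and 6.86% of all MED1 regions. The rule fixes these MED1 shares, since the 2102 regions that built the clusters cannot be gained, so nothing is read from them.

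The calls of MED1 and MED24 were then set side by side. Of the members gained, 70 were gained for both, 50.4% of those gained for MED1 and an equal part, 70 of 140, of those gained for MED24, where over all merged regions the shares were 62.2% and 69.1%. Of those lost, 99 were lost for both, 31.5% of those for MED1 and 46.0% of those for MED24, where over all regions the shares were 45.1% and 35.2%. No member was gained for one protein and lost for the other, and over all 78166 regions 7 and 12 were. All 8 libraries called 1295 members (39.9%), against 44.5% of regions in the next 300 clusters and 21.8% of all regions. A single library called 612 members (18.9%). The median width of a member was 736 bp, against 806 bp in the next 300 clusters and 435 bp over all regions; the rule takes clusters by covered bases and so favours wide regions.

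The larger part of the net difference in MED24 bases lay in retained members; whether their peaks were narrower or fewer was not separated. Over the whole width of the members, retained ones held 1719 and 1927 kb of MED24 at 2 h, against 2138 and 2062 kb at 0 h, a mean difference of -277.6 kb, which is 77.2% of the net difference. Lost members took away 101.9 kb and gained ones added 60.8 kb. Of the 1407 retained members, 643 (45.7%) had fewer MED24 bases at 2 h in both clones and 351 (24.9%) had more, where 32.4% and 32.9% of all retained regions did so. In rank within the library, 685 (48.7%) stood lower at 2 h in both clones and 379 (26.9%) higher, against 36.8% and 34.4% of all retained regions. The next 300 clusters had similar shares, 47.9% and 27.2%. For MED1, 719 of 1563 retained members (46.0%) had fewer bases and 383 (24.5%) more, against 35.2% and 28.9% of all. In rank, 820 (52.5%) stood lower and 327 (20.9%) higher, against 44.2% and 24.4%. The clusters were chosen for MED1 bases at 0 h, so nothing is read from these MED1 shares.

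Members at promoters were retained in a larger share than the others. Of 508 members at a promoter and called for MED24, 448 (88.2%) were retained, 8 (1.57%) were gained and 8 (1.57%) were lost. Over all promoter regions these shares were 71.9%, 6.10% and 1.28%. Away from promoters, 959 of 2005 (47.8%) were retained, 132 (6.58%) were gained and 207 (10.3%) were lost. Over all regions away from promoters the shares were 25.6%, 18.1% and 10.4%, so the share lost was near that of all such regions. The promoter members printed above show a range: the MED24 percentiles at Nanog were 80.8 and 72.4 at 2 h, against 96.0 and 95.8 at 0 h, and those at Spp1 were 85.2 and 82.8, against 98.8 and 99.3. At H2bc8 they were 99.1 and 99.3 at 2 h, against 99.3 and 98.7 at 0 h.

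**Figure D4:**
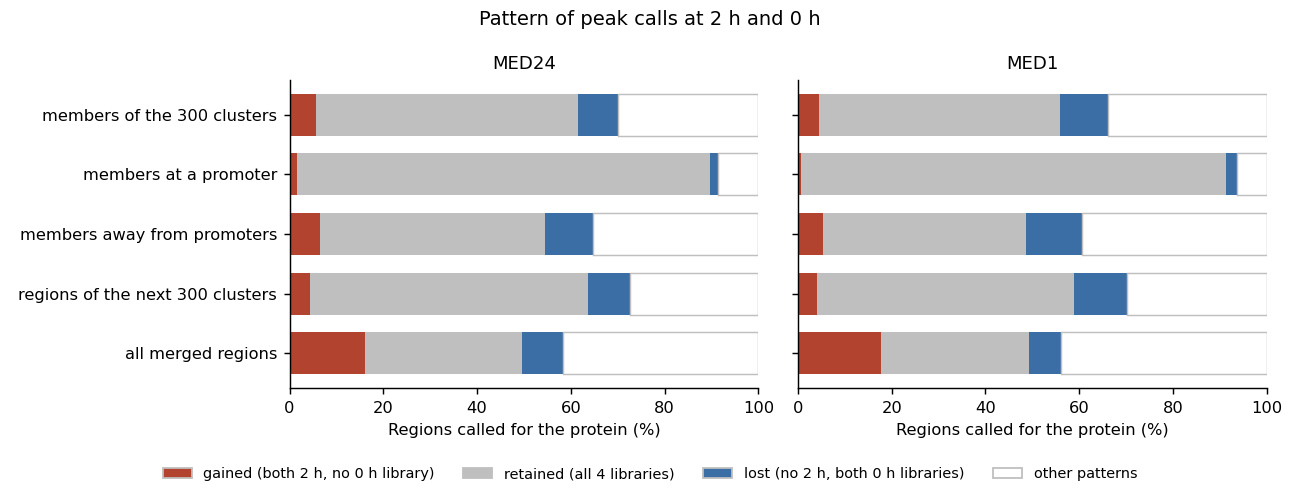
Share of regions called for MED24 (left) and MED1 (right) that were gained, retained or lost at 2 h, or had another pattern of calls, for the members, the members at and away from promoters, the regions of the next 300 clusters and all merged regions. Among MED24 members 5.57% were gained and 8.56% lost, against 16.1% and 8.84% of all MED24 regions.

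Genes were then read from 15 lists with 183 genes, with a cluster counted where its span lay within 50 kb of the gene. Of all 21887 protein-coding genes, 5.74% had such a cluster. Of 15 naive pluripotency genes 8 did (53.3%), of 19 core pluripotency genes 10, of 11 LIF and STAT3 genes 6, of 20 ERK immediate early genes 8 and of 12 Nodal and mesendoderm genes 4. No gene of the primitive endoderm, trophectoderm, fibroblast, Wnt or BMP and Id lists had one. The cells were labelled embryonic stem cells, and the defining genes of that cell type, Pou5f1, Sox2 and Nanog, each lay within a cluster.

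At the naive pluripotency genes, MED24 was lower at 2 h in both clones in 9 of 10 clusters and higher in none, with a median of -44.3%, against 56.0% lower and a median of -14.2% over the 300. At Nanog, the homeobox factor that keeps the naive state (rank 19), MED24 covered 6.49 and 7.28 kb at 2 h, against 10.4 and 9.13 kb at 0 h, and MED1 7.79 and 9.28 kb, against 19.2 and 16.5 kb. A further cluster 46.4 kb from Nanog (rank 157) had 24.5% less MED24. At Klf2, a Krüppel-like factor of the naive network, MED24 covered 4.47 and 5.54 kb at 2 h, against 11.5 and 11.5 kb at 0 h. Klf4, Prdm14 and Klf5, further regulators of that network, are named here after their values were seen: their nearest clusters had 69.8%, 60.4% and 40.8% less MED24. The tenth cluster was that at Zfp42, described above, where the clones differed.

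At the genes of LIF and STAT3 signalling all 7 clusters had less MED24 at 2 h in both clones, against 56.0% of the 300. Their median was -59.6%, against -14.2%. Of the 7, 2 overlapped one of the 300 largest clusters at 2 h, where 61.3% of the 300 did so. Both of these 2 were counted for Junb. At Spp1, which encodes osteopontin (rank 143), MED24 covered 2.07 and 2.38 kb at 2 h, against 6.41 and 6.11 kb at 0 h. Pim3 and Bcl3, named after their values were seen, had 59.6% and 60.8% less. Junb belongs to this list and to the immediate early list.

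Core pluripotency genes were mixed: 7 of 11 clusters had less MED24 at 2 h in both clones and 2 had more, with a median of -19.2%. This was near the mix of the 300 clusters, where 56.0% had less and 18.7% more, with a median of -14.2%. At Pou5f1, the gene of Oct4 (rank 54), MED24 covered 8.23 and 10.5 kb at 2 h, against 6.96 and 8.12 kb at 0 h, so that the groups just missed overlapping, while MED1 covered 11.5 and 12.7 kb, against 12.5 and 13.2 kb. At Sox2 the MED24 values were 8.03 and 8.76 kb, against 11.2 and 11.1 kb. Of the 2 clusters at Sall1, a zinc finger factor gene, the one over the gene had 13.7% more MED24 and the one 0.459 kb away 32.2% less. The Tet1 cluster, described above, also belongs here.

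Immediate early genes of ERK did not share a direction, and their mix was near that of the 300 clusters. Of 10 clusters, 6 had less MED24 in both clones and 2 had more, with a median of -10.8%. Over the 300, 56.0% had less and 18.7% more, with a median of -14.2%. At Mcl1, a survival gene, MED24 covered 12.3 and 16.0 kb at 2 h, against 16.0 and 15.7 kb at 0 h, and at Ier2 10.3 and 10.5 kb, against 15.3 and 13.7 kb. Egr1, named after its values were seen, lay in a cluster of a single member with 7.46 and 7.33 kb of MED24 at 2 h, against 6.64 and 6.82 kb. Of the ERK feedback genes only Etv5, an ETS factor gene, had a cluster, with 9.10 and 10.3 kb at 2 h, against 14.3 and 13.6 kb at 0 h.

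The Nodal list had 3 clusters, at Lefty1 and Lefty2, at Tdgf1 and at Smad7. At Tdgf1, the gene of the Nodal co-receptor Cripto, MED24 covered 6.25 and 6.83 kb at 2 h, against 14.2 and 13.4 kb at 0 h; its widest member holds the promoter printed above and stood at MED24 percentiles 96.3 and 96.8 at 2 h. At Smad7, an inhibitory Smad, the values overlapped, at 4.62 and 5.74 kb against 5.85 and 4.43 kb. Foxd3, a forkhead factor of the formative list, had 4.02 and 4.01 kb, against 9.48 and 9.78 kb; Fgf15, of the same list, shared the cluster over Fgf4, with 27.8% less MED24. The Polycomb partner Jarid2 had 16.6% less, and the cluster 40.3 kb from Nes, the neural gene of nestin, 8.69% more. The cluster at the housekeeping gene Actb had 5.68% more, and that at Gapdh 10.9% less, with clones that differed in direction.

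**Figure D5:**
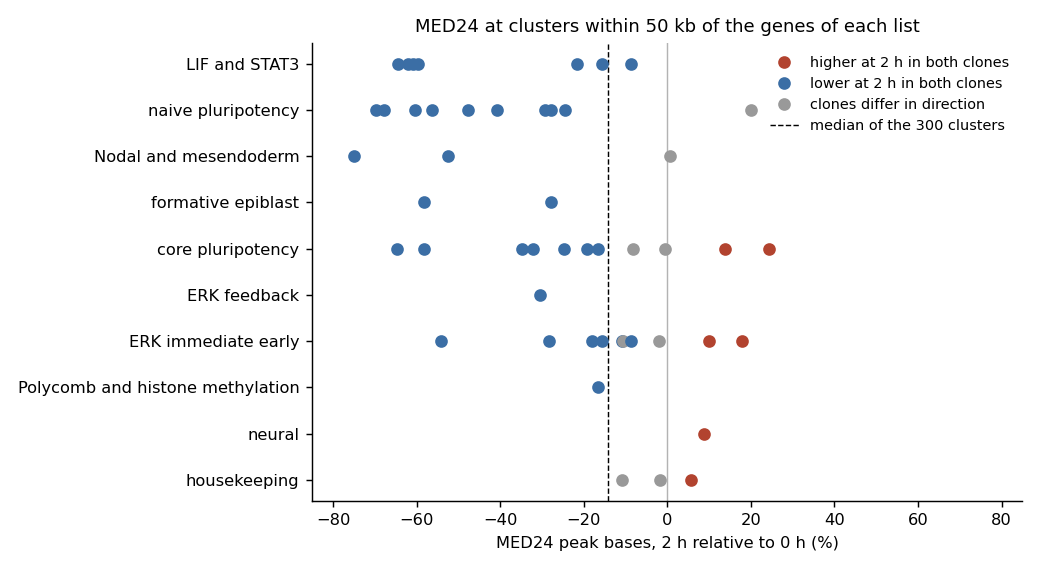
MED24 peak bases at 2 h relative to 0 h (%, mean of 2 clones) at each cluster within 50 kb of a gene of each list; red, higher in both clones; blue, lower in both clones; grey, clones differ; dashed line, median of the 300 clusters (-14.2%). All 7 LIF and STAT3 clusters lie below 0, and the housekeeping clusters lie between -10.9% and 5.68%.

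The MED24 values also varied with the number of regions a cluster was joined from. Of the 52 clusters joined from 1 to 4 regions, 73.1% had less MED24 in both clones at 2 h and 7.69% had more, with a median of -20.3%. Of the 72 joined from 10 or more, 40.3% had less and 31.9% more, with a median of -2.54%. Gained members made up 0.571% of MED24 members in the clusters of 1 to 4 regions and 8.05% in those of 10 or more. The median span was 13.9 kb in the clusters of 1 to 4 regions and 51.4 kb in those of 10 or more, and its part in these shares was not tested. Of the 300 clusters, 298 had at least 1 member called in all 4 MED24 libraries, and 123 had no member gained or lost.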

How the data were processed

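The authors deposited 1 peak list per library. Bowtie2, MACS2, bedtools and the mm10 build are named in the submitters' processing notes; versions and settings are not given in these sources. Each MED1 list holds, as deposited by the authors, a score per peak, its fold over background as a ratio, and −log10 of its p-value and q-value. Each MED24 list deposited by the authors holds a score alone, whose peak names bear FLAG and an EP300 folder; MED24 is the name in the labels and is kept. These values served to rank and filter peaks of the same list.

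Peaks that overlapped by at least 1 bp were merged, over all 8 lists for members and over the 0 h MED1 lists for clusters. Peak bases are the bases covered by a library's peaks inside a cluster. Percentiles rank a peak within its library, by −log10 p for MED1 and by score for MED24. The MED24 lists do not state what their score means; it was taken to rise with peak strength, and every MED24 percentile and count of strongest peaks rests on that. The 0 h clusters, their members and the gene lists were chosen with earlier results of these data known. MED24 sums were compared by exact two-sided permutation over libraries (scipy 1.17.1), adjusted over 5 measures by Benjamini-Hochberg; no test was made per region or per list. Replicates a and b are named clones in the labels, and the same clones were used at both times, so the change within a clone was also averaged. Scripts were tested on simulated lists with known clusters and changes.

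Named clusters are the 10 largest, the 8 with the largest decrease and the 8 with the largest increase of MED24 by the smaller change of the clones, up to 4 genes a list by rank of their cluster (some of these are not reported here), and 3 on either side of rank 300. A cluster carries the protein-coding genes it overlaps, or the nearest within 100 kb, from RefSeq (GRCm38.p6). All 183 list genes were in that table. Motifs were searched in RefSeq promoters alone, since no genome was used here.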

Additional observations from a re-analysis of the deposited data

Results flagged for a closer look

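In 3 of the named clusters the clones moved in opposite directions, and the difference between clones was not tested. At the largest cluster, over H1f3 and further histone genes, MED24 changed by -2.50 kb in clone a and by 4.09 kb in clone b (2 h minus 0 h). At the histone cluster of rank 6, with H1f1, MED24 changed by -1.77 kb in clone a and 0.780 kb in clone b, and MED1 by -0.104 kb and 1.63 kb. At Zfp42 MED24 changed by -0.120 kb in clone a and 5.83 kb in clone b. In each case clone b had the higher value, as it did for MED24 peak bases over all 300 clusters, and the 2 h MED24 list of clone b was the longest of the 8, with 48931 peaks; the part of list length in these values was not tested.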

How the results depend on the processing

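The lower MED24 peak bases, library share and mean percentile of the clusters at 2 h kept their direction under every alternative except clusters from the 2 h lists, between -570.5 and -135.3 kb, -3.99 and -1.39 percentage points, and -6.39 and -1.18 percentiles. With the same exception the net change of clusters kept its sign (MED24 -61.0% to -5.33%, MED1 -67.3% to -28.7%). For MED1 it was -30.7% with stitching over 25 kb and -28.7% with clusters from clone a measured in clone b. For MED24 peak bases, stitching over 25 kb gave -274.2 kb with an exact two-sided permutation p of 0.667. In that setting the 2 h and 0 h libraries thus overlapped. The net change of MED24 members was not stable: 0.640% with stitching over 25 kb, 1.83% with clusters from clone a measured in clone b, -10.8% with clusters from clone b measured in clone a, -12.0% with the 20000 highest ranked peaks, and -7.31% to 0.366% when each library was left out. For MED1 members the last 3 settings gave -12.9%, -17.1% and -14.4% to -3.71%, and stitching over 25 kb and clusters from clone a measured in clone b gave -0.950% and -3.41%, against -5.74% as reported. The replicate block averaged changes within paired clones and gave -6.03% for MED24 members and -11.7% for MED1 members. Its values of -367.1 kb, -2.67 points and -2.44 percentiles for MED24 repeat those reported by construction. With 1 library per clone and time, the mean change equals the difference of means, so they are no separate check. Clusters from the 2 h MED1 lists, an alternative added after the data had been seen, reversed every result: 377.4 kb, 0.554 points and 0.603 percentiles for MED24, members 11.0% for MED24 and 14.4% for MED1, and clusters 40.0% and 39.7%. The lists had 44 genes with a cluster within 50 kb, 41 within 20 kb and 48 within 100 kb. Beyond the time from which clusters are taken, the cause of these differences was not tested. Peak lists without read numbers, 2 clones a group and no genome limit all values.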

Other observations

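The clusters below were singled out after their values had been seen. In 2 clusters that were large for MED1 there was next to no MED24. At a cluster over Kcnq1, a potassium channel gene (rank 108, chr7:143217518-143237419, mm10), MED1 covered 4.62 and 6.77 kb at 2 h, against 10.7 and 7.80 kb at 0 h, and no MED24 library had a peak. At chr10:27785863-27812611 (rank 84), with no protein-coding gene within 100 kb, MED1 covered 6.47 and 5.70 kb at 2 h, against 10.8 and 9.30 kb at 0 h, and MED24 0.289 kb in clone a at 2 h alone. At Mid1 (rank 276, chromosome X) MED24 covered 0.897 and 3.02 kb at 2 h, against 0.538 and 0.475 kb at 0 h, which gave the largest percent change of the 300, 287.2%.

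The largest percent decrease, 87.5%, came from a cluster with no protein-coding gene within 100 kb (rank 203, chr6:31895869-31904533, mm10). MED24 covered 0.674 and 1.02 kb of it at 2 h, against 7.12 and 6.45 kb at 0 h, and MED1 0.802 and 0.352 kb, against 7.82 and 7.23 kb. A cluster over Morc1 (rank 243) had 0.635 and 1.49 kb of MED24 at 2 h, against 5.65 and 4.68 kb at 0 h.

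The share of MED24 members retained was highest in the outer part of the clusters, a difference that was not tested. From the outer through the middle to the inner part of the span, 61.2%, 53.6% and 51.5% of members were retained and 8.14%, 8.59% and 9.07% were lost. By the rule, each cluster starts and ends with a 0 h MED1 region. Of such members called for MED24, 71.7% were retained, against 4.60% of the other members. The rule thus favours this order, and nothing is read from it.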
